A study of Caenorhabditis elegans with 2 samples.

Results

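The genes examined encode the subunits of the proteasome in Caenorhabditis elegans, and the measurement was where an enhanced GFP fusion of the protein Y48G9A.11 was recovered on their chromatin. Members were all protein-coding genes of Ensembl release 115 (assembly WBcel235, the same sequence as build ce11) whose name starts with pas-, pbs-, rpn- or rpt-. This gave 33 of 19973 protein-coding genes, 14 of them for the core particle (7 alpha ring genes, named pas-, and 7 beta ring genes, named pbs-) and 19 for the regulatory particle (13 non-ATPase genes, named rpn-, and 6 ATPase genes, named rpt-). The chromatin came from whole animals of the strain RW12291, in which CRISPR had inserted TY1, EGFP and 3xFLAG tags at the Y48G9A.11 gene, so every animal carried the tag. Animals were synchronised by starvation as L1 larvae after bleaching and collected as L4 larvae at 47.5 hours, chromatin was sonicated to fragments of 200 to 800 bp, and an antibody against GFP was used. There was 1 group of 2 biological replicates per the labels, with no second condition. No sample without the tag was analysed here, so recovery of the fusion protein at a site and general capture of transcribed loci cannot be told apart.

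The proteasome degrades proteins that carry ubiquitin chains. Its barrel-shaped core is built from stacked rings of alpha and beta subunits: the alpha rings form the gate, and some beta subunits carry the protease sites inside. The regulatory particle caps the barrel. Its rpt- ATPases unfold substrates and thread them into the core, while its rpn- subunits form the scaffold, bind ubiquitin (rpn-10, rpn-13) or remove it (rpn-11). In C. elegans the transcription factor SKN-1 raises the expression of proteasome genes when proteasome function is impaired.

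A peak of the thresholded list made from both replicates, which held 2228 peaks, lay at the 5′ end of 8 of the 33 proteasome genes. A gene counted when a summit fell between 1000 bp upstream and 200 bp downstream of its annotated 5′ end. The 8 genes were 24.2% of the proteasome genes, against 6.13% of all protein-coding genes (1225 genes). Both particles were represented, with 4 of 14 core genes (pas-1, pas-4, pbs-2 and pbs-3) and 4 of 19 regulatory genes (rpn-2, rpn-3, rpt-2 and rpt-3). By subunit type the shares were 28.6% of alpha ring genes (2 of 7), 28.6% of beta ring genes (2 of 7), 33.3% of ATPase genes (2 of 6) and 15.4% of non-ATPase genes (2 of 13). Each share by subunit type rests on 2 genes, so a single gene more or fewer would change it greatly. No test over genes was made. The shares describe listed peaks, not all recovery, because a further 22 proteasome genes had a candidate peak short of the list.

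The sequences under 5 of the 8 summits are shown because the peaks at these genes differ in what lies beneath them. Each is 101 bases of the RefSeq genome sequence centred on the summit, build ce11, written 5′ to 3′ on the strand of the proteasome gene. Capitals mark 6-base words that were frequent at summits of the listed peaks away from tRNA genes, or the words TGTCAT and TATCAT, which end the site of SKN-1 and are described further on. The rpt-2 summit (chrV:6017783-6017883, minus strand) lay between divergent genes, 164 bp upstream of the 5′ end. The rpn-3 summit (chrIII:8447104-8447204, plus strand) and the rpn-2 summit (chrIII:6198678-6198778, plus strand) also lay between divergent genes, 199 and 456 bp upstream. The summits of pas-1 (chrV:14422437-14422537, minus strand) and rpt-3 (chrIII:6489819-6489919, plus strand) fell instead inside the genes' own coding exons, 131 and 76 bp downstream. In these windows the listed words were marked under the rpt-2 summit and not under those of rpn-3, rpn-2, pas-1 and rpt-3, where TATCAT at rpt-3 was the sole word in capitals.
rpt-2: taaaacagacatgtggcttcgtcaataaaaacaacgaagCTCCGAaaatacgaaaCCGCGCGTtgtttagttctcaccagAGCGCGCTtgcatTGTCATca
rpn-3: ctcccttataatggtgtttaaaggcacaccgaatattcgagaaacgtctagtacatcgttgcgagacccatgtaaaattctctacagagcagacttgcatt
rpn-2: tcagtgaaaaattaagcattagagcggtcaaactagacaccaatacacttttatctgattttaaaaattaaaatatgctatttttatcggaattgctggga
pas-1: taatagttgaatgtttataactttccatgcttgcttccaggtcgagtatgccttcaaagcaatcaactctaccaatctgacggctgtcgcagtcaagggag
rpt-3: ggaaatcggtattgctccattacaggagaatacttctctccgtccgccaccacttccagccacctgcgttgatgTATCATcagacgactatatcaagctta

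The strongest proteasome peak stood at pas-4, which encodes an alpha ring subunit. Its pooled signal, the score the authors' peak caller gave on a scale that is not stated, was 645, with 327 in replicate 1 and 297 in replicate 2. The pooled values are close to the sum of the replicates' values, so a pooled value is not to be set against that of a single replicate. Both replicates placed the pas-4 summit within 7 bp of the pooled one, and both listed it past their own threshold. The peak ranked 61 of 2228 and stood at percentile 93.7 among the 1225 protein-coding genes with a listed peak. Its summit, at position 8728626 of chromosome I, was 139 bp upstream of pas-4 and 138 bp upstream of the divergent gene rpb-3, which encodes an RNA polymerase II subunit. The 5′ ends of these genes are 277 bp apart, so the summit was almost midway, and the annotation gives an ncRNA gene, C36B1.16, in the same interval.

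The beta ring gene pbs-2, whose counterpart in yeast and mammals is one of the protease subunits, had a pooled signal of 419. Replicate 1 gave 231 and replicate 2 gave 171 at summits within 15 bp of the pooled one, and both lists held the peak. The summit, at position 12968615 of chromosome I, was 335 bp upstream of pbs-2 and 331 bp upstream of eif-6, a translation initiation factor gene that points the other way. It too lay close to the middle of the interval, which is 666 bp long. A further listed peak with a signal of 484 lay 1320 bp downstream of the pbs-2 5′ end, outside the gene and outside its window.

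Among the ATPase genes, rpt-2 had a pooled signal of 378, with 222 in replicate 1 and 156 in replicate 2, and was in both replicates' lists. The divergent gene, aps-1, which encodes the small subunit of a clathrin adaptor complex, begins 301 bp away, and the summit was 137 bp upstream of it. The annotated ncRNA gene F29G9.10 starts in the same interval, 18 bp before the summit. The other ATPase gene with a listed peak, rpt-3, had the lowest signal of the 8, at 91.7 (54.5 in replicate 1 and 41.2 in replicate 2). Neither replicate's own list held it, as was the case at 21.3% of all protein-coding genes with a listed peak. Its summits in the replicates were 6 bp and 78 bp from the pooled one, so replicate 2 placed it less closely. It was also the one listed proteasome peak that the authors' conservative list did not hold.

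Of the non-ATPase genes, rpn-3, a scaffold subunit of the regulatory particle, had a pooled signal of 200.1, with 80.1 in replicate 1 and 108 in replicate 2. Both replicates listed it, and replicate 2 placed the summit at the same base as the pooled list. The divergent partner is hsp-110, a chaperone gene, 444 bp away, and the ncRNA gene C30C11.14 starts between them. For rpn-2, a large subunit that holds the ubiquitin receptor of the rpn-13 family in yeast and mammals, the pooled signal was 147, with 68.6 in replicate 1 and 64.1 in replicate 2. Summits in replicates 1 and 2 lay 30 bp and 72 bp from the pooled one. The replicates' signals were alike, but only replicate 1 passed its threshold, with a score of 841 against the minimum of 830, while replicate 2 had 739. The score is the authors' rescaled irreproducible discovery rate (IDR), which compares the ranks of peaks between lists, and 830 corresponds to an IDR of 0.01. The partner of rpn-2 is C23G10.7, 770 bp away, and a second listed summit of 10.4 lay 246 bp upstream of rpn-2.

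The remaining core genes had weaker peaks. At pbs-3, a beta ring gene, the pooled signal was 100.4, with 40.0 in replicate 1 and 65.6 in replicate 2, and neither replicate listed it. Its summit, 178 bp upstream, fell in the 3′ UTR of ulp-2, a SUMO protease gene on the same strand that ends 23 bp before pbs-3. The alpha ring gene pas-1 had a pooled signal of 96.8, with 57.0 in replicate 1 and 47.2 in replicate 2. Replicate 1 gave its peak a score of 1000 and replicate 2 a score of 211, although the signals differed little and both placed the summit 3 bp from the pooled one. Against all protein-coding genes with a listed peak these were low values: pbs-3 stood at percentile 8.82, pas-1 at 6.20 and rpt-3 at 3.27. None of the 8 summits was within 100 bp of a tRNA gene, a kind of gene at which this list also has peaks.

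**Figure D1:**
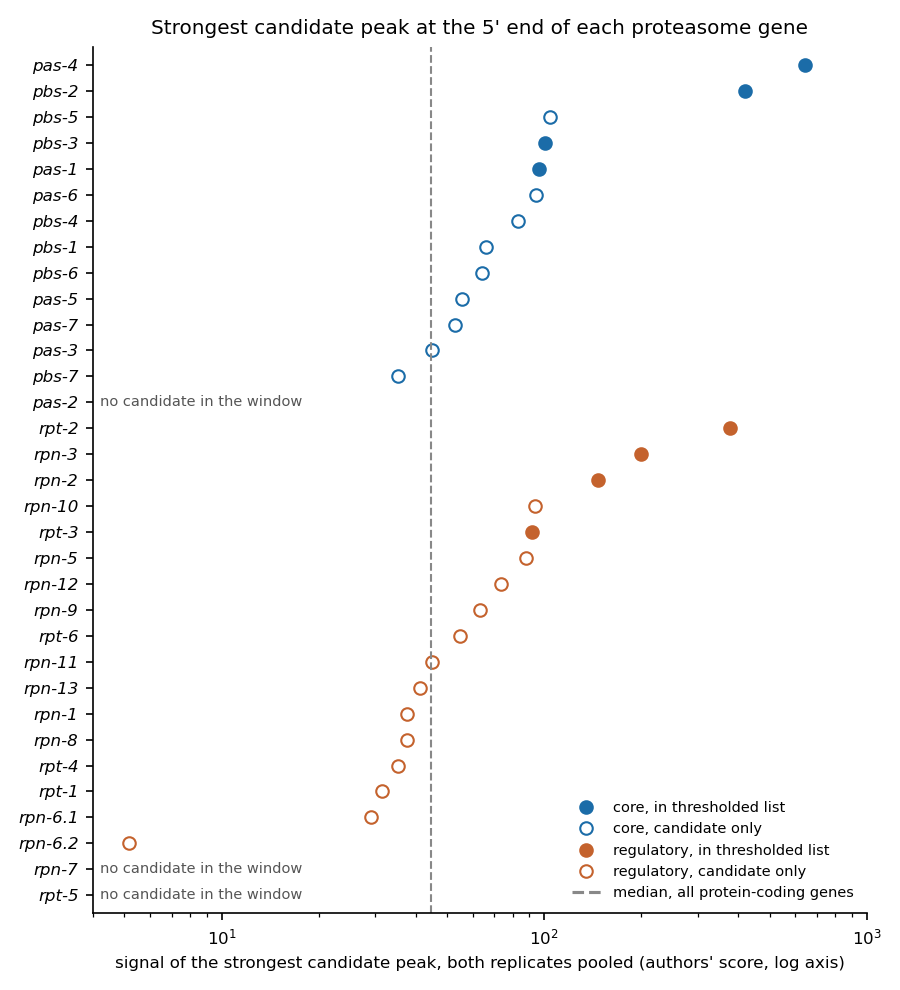
Signal of the strongest candidate peak at the 5′ end of each proteasome gene (x axis, authors' score, both replicates pooled, log axis), with core genes above regulatory genes. Filled points are in the thresholded list, open points are candidates below it, and the dashed line is the median over all protein-coding genes with a candidate (44.7). The points of pas-4, pbs-2 and rpt-2 stand apart at 378 to 645, and filled and open points overlap between 91.7 and 104.6.

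The replicates' own lists gave 4 of the 33 proteasome genes in common, against 3.14% of all protein-coding genes. Replicate 1 listed a peak at 6 of the 33 genes, against 4.30% of all protein-coding genes, and replicate 2 at 5 genes, against 4.03%. Those in both were pas-4, pbs-2, rpn-3 and rpt-2, the 4 with the highest pooled signal. Replicate 1 alone added pas-1 and rpn-2, and replicate 2 alone added pbs-5. The conservative list held 7 of the proteasome genes, against 6.01% of all protein-coding genes. Over the 28 proteasome genes with a candidate in both replicates, Spearman's rho of the strongest signal was 0.609, against 0.539 over 10375 protein-coding genes. These are descriptions across genes of the same 2 libraries, not tests. Replicate 1 was higher at 17 of the 28 genes (60.7%), against 41.5% of the protein-coding genes, and the medians at the 28 were 35.2 in replicate 1 and 36.9 in replicate 2.

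**Figure D2:**
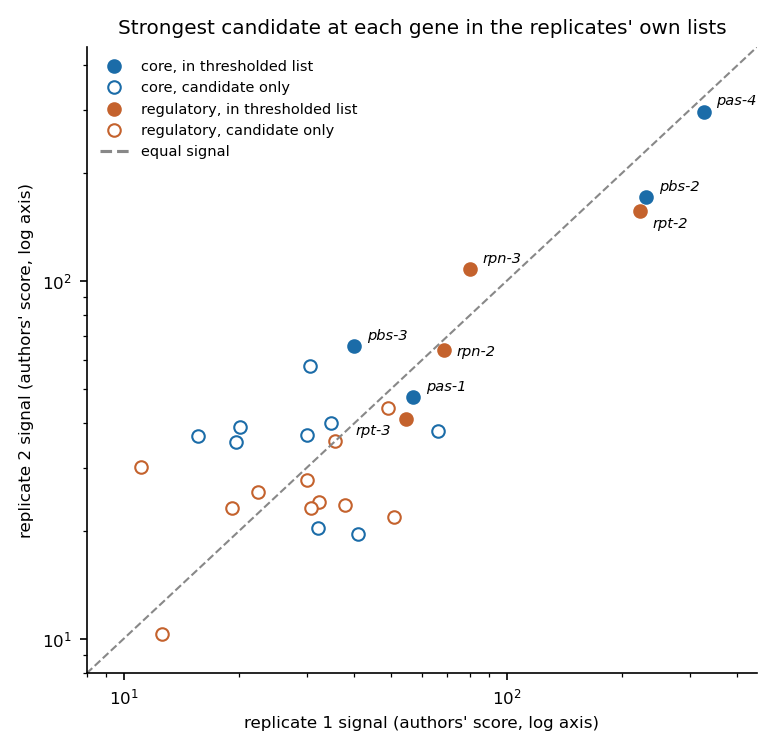
Signal of the strongest candidate at each of the 28 proteasome genes with one in both replicates: replicate 1 on the x axis, replicate 2 on the y axis (authors' score, log axes), with a dashed line where they are equal. The genes pas-4, pbs-2, rpt-2 and rpn-3 lie at the upper right near the line, and the candidates below the threshold scatter on both sides of it.

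Most proteasome genes had a candidate peak, whether or not it reached the list. In the ranked list of all candidate peaks, 30 of the 33 genes (90.9%) had a candidate in the window, against 61.1% of all protein-coding genes. The median signal of the strongest candidate was 65.1 at these proteasome genes, against 44.7 over the 12212 protein-coding genes with one, and 22 of the 30 were above that second median. The core genes with a candidate had a median of 83.1, and 12 of 13 were above 44.7. For the regulatory genes the median was 54.8, and 10 of 17 were above it. These counts include the 8 genes with a listed peak. Without them, the median candidate was 53.8 at the remaining 22 genes, against 41.8 over the 10991 protein-coding genes with a candidate and no listed peak. It was 64.1 at the 9 core genes and 41.2 at the 13 regulatory genes, so the regulatory genes short of the list were close to protein-coding genes of the same kind. All these medians leave out pas-2, rpn-7 and rpt-5, which had no candidate.

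The strongest candidates short of the list were as high as the weakest listed peaks. The beta ring gene pbs-5, whose counterpart in yeast and mammals carries a protease site, had a candidate of 104.6, above the listed peaks of pbs-3, pas-1 and rpt-3. Its score was 153 in the pooled ranked list from which the thresholded list was drawn (IDR 0.426) and 346 in the other (IDR 0.146). The strongest candidates covering its summit were 46.2 in replicate 1 and 53.7 in replicate 2. Their own summits lay 118 and 128 bp from it, at 267 and 277 bp downstream of the 5′ end and so outside the window. In replicate 2's own list the strongest summit inside the window was a weaker one of 33.0, 76 bp downstream of the 5′ end. It had a score of 979, as did the replicate 2 candidate of 53.7, and the threshold was 830. The alpha ring gene pas-6 had 94.2, with 66.0 in replicate 1 and 38.1 in replicate 2, at summits 32 and 80 bp away. The ubiquitin receptor gene rpn-10 had 94.0, with 48.9 in replicate 1 and 44.0 in replicate 2. The lid subunit gene rpn-5 had 87.9, with 37.8 in replicate 1 at the same base and 53.4 in replicate 2 at 55 bp from it. That replicate 2 summit, 204 bp downstream of the 5′ end, was outside the window. Inside the window the strongest replicate 2 candidate at rpn-5 was 23.6. Around the threshold of 830, the score was 842 for rpt-3 and 924 for pbs-3 just inside it, and 799 for pas-6 and 760 for rpn-10 just outside it. These 4 scores come from the pooled ranked list from which the thresholded list was drawn. In the other pooled ranked list, rpt-3 had 721, pbs-3 had 856, pas-6 had 620 and rpn-10 had 775, so of these genes rpt-3 alone changed side. Ranking by signal and by score orders these genes differently.

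Below these, pbs-4 had a candidate of 83.1 and rpn-12, a lid subunit gene, one of 73.4. Values from 66.1 to 52.9 were found at pbs-1, pbs-6, rpn-9, pas-5, rpt-6 and pas-7. The deubiquitinase gene rpn-11 had 45.0, the same as pas-3, and the ubiquitin receptor gene rpn-13 had 41.2. The genes rpn-1, rpn-8, pbs-7, rpt-4, rpt-1 and rpn-6.1 lay between 37.6 and 29.0, under the median of all protein-coding genes with a candidate. The lowest was rpn-6.2, with 5.17, where replicate 1 had no candidate in the window. Its paralogue rpn-6.1 encodes a subunit that holds the core and regulatory particles together. A listed peak of 151 lay in an intron of rpn-6.1, 607 bp downstream of the 5′ end and so outside the window, and one of 105 in a coding exon of rpn-9, at 898 bp. Listed peaks also lay upstream beyond the window, 1075 bp from pas-5 (134.8), 1510 bp from pbs-1 (218) and 1889 bp from rpn-12 (82.9).

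The listed peaks were also described by the arrangement of the neighbouring genes. A gene on the opposite strand began within 1000 bp upstream at 21 of the 33 proteasome genes (63.6%), against 17.7% of all protein-coding genes. Listed peaks were present at 5 of these 21 (23.8%), against 14% of the 3539 protein-coding genes arranged in this way. Their signals ran from 147 to 645 and include the 5 highest of the 8. A gene on the same strand alone ended within 1000 bp upstream at 8 proteasome genes, of which 3 had a listed peak (37.5%), against 6.54% of 5657 protein-coding genes. Those 3, pbs-3, pas-1 and rpt-3, had signals from 91.7 to 100.4. These signals did not overlap, but over all protein-coding genes they did: listed peaks ran from 70.7 to 2907 (median 182) at divergent genes and from 15.7 to 3680 (median 141) at genes with a same-strand gene alone. With 5 and 3 proteasome genes no test was made. The 4 genes with neither arrangement, pas-5, pbs-4, rpt-4 and rpt-6, had no listed peak, against 3.32% of protein-coding genes of that kind.

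**Figure D3:**
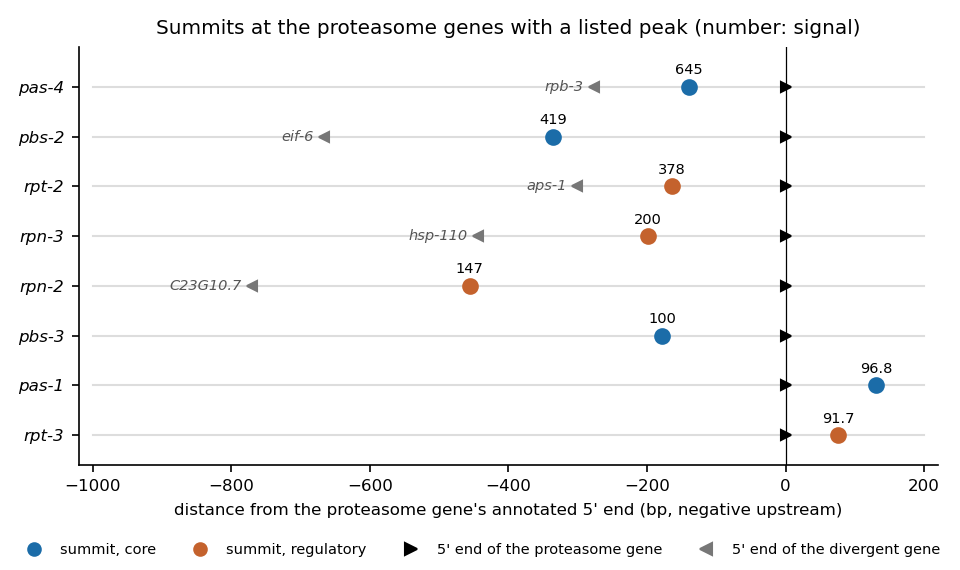
Summits of the listed peaks (circles, with the pooled signal) by distance from the 5′ end of the proteasome gene, in bp with negative values upstream. Black triangles mark the proteasome gene's 5′ end and grey triangles the 5′ end of the divergent protein-coding gene. The 5 strongest summits lie between divergent 5′ ends, and those of pas-1 and rpt-3 lie downstream of the 5′ end.

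The same summit served a divergent protein-coding gene at each of the 5 strongest peaks. Such sharing involved 62.5% of the 8 proteasome genes with a listed peak, against 45.4% of the 1225 protein-coding genes with one. A divergent gene within 1000 bp upstream was present at 63.6% of all proteasome genes, against 17.7% of all protein-coding genes. The 62.5% is thus close to the share given by gene arrangement alone, and whether it is a property of the peaks was not tested. Over all protein-coding genes the shared peaks were also the stronger ones, with a median signal of 187 against 143 for those not shared; among the proteasome genes the medians were 378 and 96.8. A summit between 5′ ends cannot be given to either gene from its position: when each summit was given to the nearest protein-coding 5′ end alone, pas-4, pbs-2 and rpt-2 lost theirs to rpb-3, eif-6 and aps-1, which are 1 to 27 bp nearer, and rpn-2 kept the weak summit of 10.4 alone. The summit lay downstream of the 5′ end at 25.0% of the proteasome genes with a listed peak (pas-1 and rpt-3), against 9.96% of protein-coding genes with one. At 9 proteasome genes a same-strand gene ended within 1000 bp upstream, and 0 of the 9 upstream genes had a listed peak of its own. The share was 7.78% of the 5731 protein-coding genes so placed, and with 9 genes, 0 is near that share. Some C. elegans genes in such an arrangement are transcribed together as an operon, which was not examined here. The gaps ran from 23 bp, between ulp-2 and pbs-3, to 504 bp, between mans-2 and rpt-1. The 9 upstream genes included rpoa-12, which encodes an RNA polymerase I subunit and ends 107 bp before pas-1. They also included mrpl-9, a mitochondrial ribosomal protein gene that ends 119 bp before rpn-10.

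**Figure D4:**
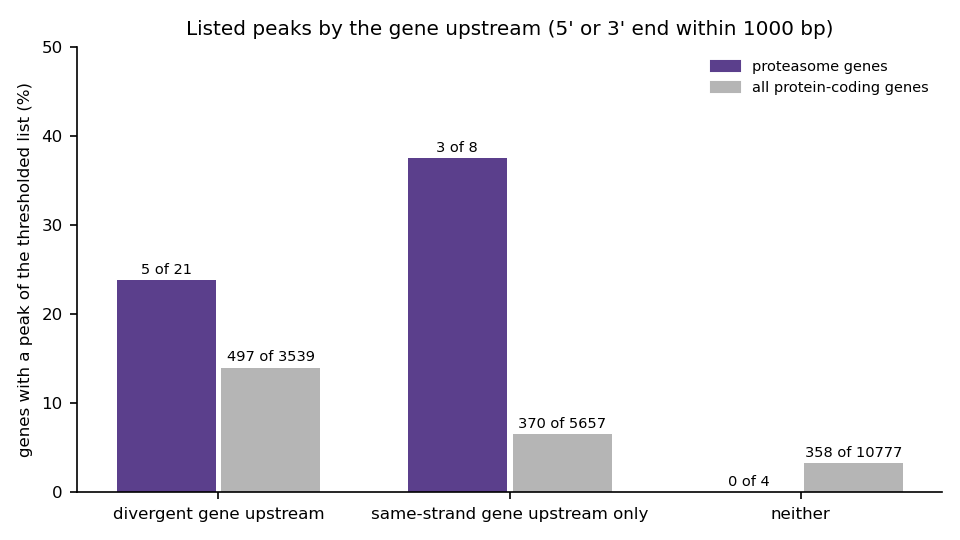
Share of genes with a listed peak (y axis, percent) by the gene upstream, for proteasome genes (purple, left) and all protein-coding genes (grey, right), with counts above the bars. Proteasome genes had 5 of 21, 3 of 8 and 0 of 4, against 497 of 3539, 370 of 5657 and 358 of 10777 protein-coding genes.

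The proteasome summits differed in the words frequent under the listed peaks. Words of 6 bases on either strand were counted in the 100 bp at each summit and in 100 bp of flank, and the 20 with the largest excess were kept. Because the words came from these same peaks, their shares at summits and in flanks restate that choice and test nothing. Over all 2228 listed peaks, at least 1 such word was in 64.4% of summit regions; rpt-2 held 5, pas-4, pbs-2 and rpn-3 held 2 each, rpn-2 and rpt-3 held 1 each, and pbs-3 and pas-1 held 0. Words that occur in tRNA genes, such as CGAACC (9.96% of summit regions and 2.02% of flanks), were among these 20, so the count was repeated in the 1930 listed peaks more than 100 bp from a tRNA gene, a choice made after the data had been seen. There the leading word, ACGCGC, was in 11.1% of summit regions and 1.30% of flanks, and CTCCGA was in 10.2% and 3.63%. At least 1 of the 20 words was in 56.9% of summit regions, with a median of 1. With this second set of words the proteasome summits held several or none: pas-4 had 7, rpt-2 had 6 and pbs-2 had 5, while rpn-3, rpn-2, pbs-3, pas-1 and rpt-3 had 0. CTCCGA was shared by pas-4, pbs-2 and rpt-2. The words at rpt-2 were otherwise GC-only or nearly so (GCGCGC in 9.59% of summit regions and 0.933% of flanks, AGCGCG in 9.69% and 1.45%), whereas pas-4 and pbs-2 shared CGACAC (10.8% and 2.38%), ACACTC (10.3% and 2.49%), ACTCCG (8.50% and 1.97%) and ACACGC (8.39% and 1.66%). Many of these words overlap each other by all but 1 base, so their number is not a number of separate sites. The GC content of the summit region was 36.0% at pbs-2, and at pas-4 and rpt-2 it was equal to the median over the 1930 peaks.

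Words of 10 bases, also added after the data had been seen, set pas-4 and pbs-2 apart from rpt-2. The leading words were picked from these same peaks, so their counts at summits, in flanks and in listed peaks describe that choice and test nothing. The leading word, ACGACACTCC, was in 93 of the 1930 summit regions (4.82%) and in none of the flanks. It occurred 446 times in the genome, and 116 of these occurrences (26.0%) lay in a listed peak. Peaks with the word at the summit had a median signal of 452, against 126 for those without it. It was at the summits of pas-4 and pbs-2, 19 and 33 bp from the summit and on the opposite strand to the proteasome gene in both, and at no other proteasome summit. In the 5′ windows of protein-coding genes it was present at 230 (1.15%), and 130 of these had a listed peak. Any of the 20 leading words of 10 bases was at 10.2% of the 1930 summits, at 2 of the 8 proteasome genes and at 16.3% of the 1225 protein-coding genes with a listed peak. A match is a description of the letters and was not tested as a site.

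The word ACGACACTCC also stood at csn-5, a gene of the wider pathway that encodes the subunit of the COP9 signalosome that cuts NEDD8 from cullins. The csn-5 summit (chrIV:5649225-5649325, build ce11, plus strand, 258 bp upstream of the 5′ end) had a signal of 351 (176 in replicate 1 and 172 in replicate 2), and it is shown because it holds the word, on the strand opposite to the gene as at pas-4 and pbs-2. The candidate at pas-6 (chrV:5584558-5584658, minus strand), which missed the list, is shown beside it because it holds 5 of the 6-base words without having a listed peak. Both are 101 bases of the RefSeq genome sequence on the strand of the gene, with the frequent words of 6 and 10 bases in capitals. At pas-6 the words sit to the 3′ side of the summit, which is the middle base.
csn-5: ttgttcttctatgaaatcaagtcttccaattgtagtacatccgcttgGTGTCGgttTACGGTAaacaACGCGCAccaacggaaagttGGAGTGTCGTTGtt
pas-6: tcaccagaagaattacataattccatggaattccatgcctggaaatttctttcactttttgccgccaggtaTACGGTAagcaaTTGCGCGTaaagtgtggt

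The words that end the SKN-1 site stood at proteasome genes with and without listed peaks. TGTCAT or TATCAT, searched on both strands from 250 bp upstream to 50 bp downstream of the 5′ end, was present at 15 of 33 proteasome genes (45.5%), against 32.3% of all protein-coding genes. TGTCAT was at 12 (36.4%), against 16.3%, and TATCAT at 4 (12.1%), against 19.4%. By particle, 5 of 14 core genes (35.7%) and 10 of 19 regulatory genes (52.6%) had either word. Either word was present at 3 of the 8 proteasome genes with a listed peak (pbs-2, rpn-2 and rpt-2) and at 12 of the 25 without one. In the 100 bp centred on the summits, rpt-2 held TGTCAT and rpt-3 held TATCAT, against 4.89% of all 2228 listed peaks with either word. A word of 6 bases occurs often without being bound, and neither its presence nor its absence bears on SKN-1, which was not measured.

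Other genes of ubiquitin-dependent degradation had listed peaks at a like share. A list of 54 genes covered ubiquitin, its conjugating enzymes and ligases, cullins, COP9 signalosome subunits, cdc-48 and its partners, shuttle factors and SKN-1 processing. It also held uba-1, aip-1, dss-1, psmd-9, ubh-4 and usp-14, and it was drawn up with earlier results of these data known. Of the 54 genes, 13 had a listed peak (24.1%), against 6.13% of all protein-coding genes (1225 genes). The median signal of listed peaks was 173.5 at the 8 proteasome genes, 309 at these 13 and 158 at the 1225 protein-coding genes. Over all genes with a candidate, however, the medians were alike, at 65.1 for the proteasome genes and 66.8 for the 47 pathway genes, and the highest single peak of both lists was that of pas-4. All 13 pathway genes were in replicate 1's own list and 11 of them in both. The strongest pathway peak was at eel-1, which encodes a HECT ubiquitin ligase, with 569 (317 in replicate 1 and 285 in replicate 2). The unfoldase gene cdc-48.1, which extracts ubiquitinated proteins, had 501 (276 and 216 in replicates 1 and 2), and ufd-3, a partner of cdc-48, had 539 (285 and 243). The conjugating enzyme gene ubc-20 had 467 (246 and 204), and sel-1, which acts in the removal of misfolded proteins from the endoplasmic reticulum, had 416 (197 and 209). Among these peaks, that of cdc-48.1 was shared with the gene C06A1.9 and that of ubc-20 with mxl-2. The skn-1 gene itself had a candidate of 61.2, short of the list. The shuttle factor gene rad-23 starts 395 bp from the divergent rpn-12, and neither had a listed peak.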

How the data were processed

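The deposited files were peak lists on build ce11, made by the authors for each replicate and for both pooled. Per the file headers and the deposited values, each peak has a signal (the authors' score relative to a control, scale not stated), a rescaled score up to 1000 and, in ranked lists, the −log10 of the IDR. The sources used here do not name the aligner, peak caller, versions or depth. Lists with a lowest score of 830 (IDR 0.01) are called thresholded: 2228 peaks pooled, 2171 conservative, 1358 in replicate 1 and 1200 in replicate 2. The pooled ranked list used for candidates held 93476 peaks. The 2228 peaks matched the other pooled ranked list (93610) in position and score, and 2214 matched the one used in position.

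Windows came from Ensembl 115, sequence from the RefSeq genome. Python 3.11.15, numpy 2.4.6, scipy 1.17.1 and matplotlib 3.10.9 were used, and window assignment was tested on simulated data. All 33 members are named, with full values for those with a listed peak, up to 4 of the strongest others, the lowest, sharing genes and the 6 strongest pathway genes. Members and lists were chosen with earlier results of these data known. Nothing was tested over genes. Alternatives were the conservative list, each replicate's list, the stronger 50% of peaks, windows of 500 and 2000 bp, the nearest 5′ end and any overlap.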

Additional observations from a re-analysis of the deposited data

How the results depend on the processing

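The count of proteasome genes with a listed peak, 8 as reported, was 5 in the stronger 50% of the list, 5 with each summit given to the nearest protein-coding 5′ end alone and 5 to 6 in the replicates' own lists; the conservative list gave 7, the 2000 bp window 11 (adding pas-5, pbs-1 and rpn-12), the 500 bp window 8 and any overlap 9. For the core particle (4) the count was 2 in the stronger 50%, 2 with the nearest 5′ end and 3 in either replicate's list. For the regulatory particle (4) it was 2 to 3 in the replicates' lists. The number of all protein-coding genes with a listed peak, 1225 (6.13%), was 793 (3.97%) in the stronger 50% and 804 to 858 (4.03% to 4.30%) in the replicates' lists. It was 1201 (6.01%) in the conservative list, 959 (4.80%) with the 500 bp window and 1637 (8.20%) with the 2000 bp window. With the nearest 5′ end it was 930 (4.66%), and with any overlap 1328 (6.65%). The median signal at proteasome genes, 173.5, was 200.1 in the conservative list, 378 in the stronger 50%, 147 with the 2000 bp window, 147 with any overlap and 96.8 with the nearest 5′ end; it was 151 to 156 in the replicates' lists, whose signals are on a lower scale. The pathway count stayed between 11 and 15 under all 8 alternatives, against 13. No paired analysis was possible because there was 1 group. Depth is unknown, so peaks near the threshold cannot be given an interval.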
